A study of Mus musculus with 10 samples.

Results

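The genes described here are 34 regulators of apoptosis and necroptosis, chosen by symbol from the 21869 genes of a count table of sorted mouse retinal cells. All 34 symbols were found. Live CD11b-positive cells with an intermediate CD45 level, a gate the labels call microglia (the resident macrophages of the retina), had been sorted by surface CD36, a scavenger receptor for lipids. There were 5 CD36-positive libraries, carrying the numbers 1, 2, 3, 4 and 7, and 5 CD36-negative ones, with the numbers 1, 2, 4, 7 and 8. The titles mark all 10 as WT. Sodium iodate, which injures the retinal pigment epithelium, was given into a vein at 20 mg/kg per the labels, or the same volume of phosphate-buffered saline, with eyes collected after 7 days. The labels do not tie the sorted samples to either treatment, so no treatment was compared, and nothing states that the libraries came from separate mice, so p-values measure the spread between these libraries. The series is titled for CD36, lipid accumulation in reactive microglia and the Nlrp3 and IL-1β pathway, and the comparison of the 2 sorted parts asks here how cell death genes differ between them.

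Apoptosis in the mitochondrial pathway is set by the BCL2 protein family. Anti-apoptotic members (BCL2, BCL-XL, MCL1, A1) hold the pore-forming effectors BAX and BAK in check, and BH3-only members such as BIM, PUMA and NOXA bind the anti-apoptotic members and release that hold. Once the outer mitochondrial membrane is open, cytochrome c joins APAF1 and caspase-9 in the apoptosome, while inhibitor of apoptosis proteins restrain caspases. Death receptors such as FAS act through FADD and caspase-8 instead, and where caspase-8 is blocked, RIPK1, RIPK3 and MLKL can carry out necroptosis. Myeloid cells are known for their use of MCL1 and A1.

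Total counts per library ran from 5001692 to 13250984, with CD36-positive libraries 1 and 3 the shallowest. Cd36 itself stood at 170 to 255 CPM (counts scaled to library size by TMM, a method that balances libraries on most genes) in CD36-positive and 41.8 to 55.3 CPM in CD36-negative libraries. All 12 microglia markers were detected in both groups and 0 passed the test, with a summed level of 9138 to 19563 CPM in CD36-positive and 8498 to 19968 CPM in CD36-negative libraries. Other leukocytes left less signal in the CD36-positive part. Of their tested markers, 7 of 8 neutrophil, 7 of 8 T and NK cell, 10 of 12 dendritic cell and 10 of 12 monocyte genes fell. Their summed levels in CD36-positive against CD36-negative libraries were 83.7 to 194 against 315 to 855 CPM for neutrophils, 4.28 to 22.8 against 80.6 to 404 for T and NK cells, 231 to 470 against 1072 to 1416 for dendritic cells and 289 to 767 against 1055 to 1967 for monocytes. Much of each CD36-positive sum came from a single gene that did not pass. Mean levels, CD36-positive against CD36-negative, were 120 against 173 CPM for Csf3r (neutrophil) and 8.56 against 8.87 for Cd4 (T cell). Siglech, listed for dendritic cells and also for microglia, was at 268 against 222 CPM, and Ccr2 (monocyte) at 413 against 408. Among the defining genes, Retnlg, Ly6g, G0s2, Ngp and Prf1 were at 0 in every CD36-positive library, though Ly6g and Ngp reached at most 0.919 CPM in a CD36-negative one. Libraries also fell apart by Y-linked expression, high in CD36-negative 1 and 2 and CD36-positive 1, 2 and 3 and low in the other 5, so results were also fitted within each set. The mean log2(CPM + 1) of 3 Y-linked genes was 5.72 to 6.25 in the high and 2.58 to 4.21 in the low set. In the low set the CD36-negative libraries (4.21, 4.02 and 3.11) lay above the CD36-positive ones (2.58 and 2.62). Groups within the low set were thus not matched for this level. The levels of 12 photoreceptor genes summed to 130 to 1068 against 431 to 2701 CPM, and 2 fell; of 2 tested B cell markers 0 passed. The part of these cells in any difference below was not tested. In sorted bulk samples fewer cells of a type and less RNA per cell cannot be told apart.

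Of the 34 regulators, 33 had enough counts to be tested and 1, the effector gene Bok, did not. In CD36-positive cells 1 was higher, Bcl2a1b, and 1 was lower, Pmaip1, by edgeR's quasi-likelihood test at an adjusted p of 0.05 over all 11596 genes tested. The other 31 did not pass. That is 6.06% of the regulators, against 7.36% of all tested genes (2.61% higher and 4.74% lower), so the share called was near the background. At an unadjusted p under 0.05 it was 5 regulators (15.2%) against 21.3% of all tested genes: Bcl2a1a, Bcl2a1b and Bak1 higher (10.6% of all tested genes) and Pmaip1 and Birc3 lower (10.8%). The CPM ranges of the groups did not overlap for 3 regulators (Bcl2a1a and Bcl2a1b above, Pmaip1 below), which is 9.09% against 8.42% of all tested genes (2.59% above and 5.83% below). The median log2 fold change, CD36-positive minus CD36-negative, was -0.08 over the 33 regulators and 0.02 over all tested genes. For 23 of the 33 the 95% confidence interval lay within a log2 fold change of -1 to 1, so changes of more than 2-fold lay outside it. In simulated data of this size 31.5% of 2-fold and 81.5% of 4-fold changes were recovered, and a gene that did not pass is not shown to be equal in both groups.

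**Figure D1:**
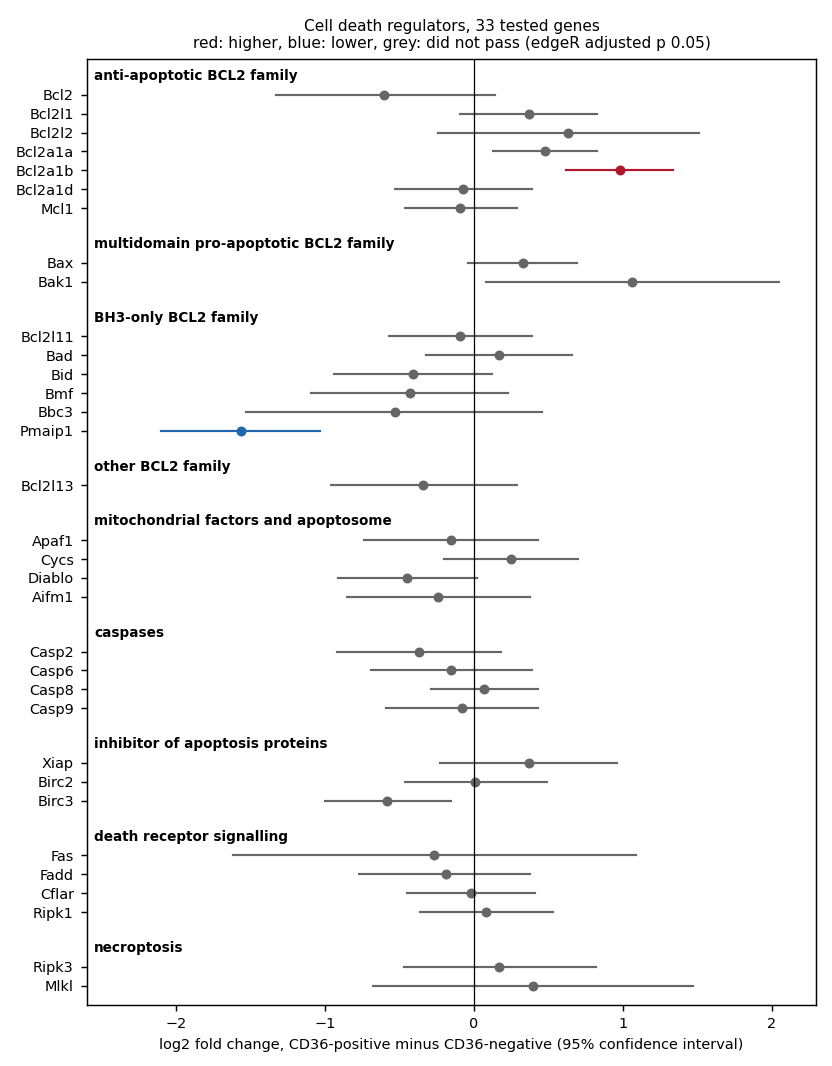
Log2 fold change of each of the 33 tested regulators (points) with its 95% confidence interval (lines), CD36-positive minus CD36-negative, grouped by role. Bcl2a1b (0.98, red) was higher and Pmaip1 (-1.56, blue) lower; the 31 genes in grey did not pass the edgeR threshold.

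Bcl2a1a, Bcl2a1b and Bcl2a1d are mouse copies of 1 gene for A1, an anti-apoptotic BCL2 protein of blood cells. Another Bcl2a1 symbol, Bcl2a1c, was counted at a low level (average log2 CPM 1.99) and did not pass (log2 fold change 0.28, edgeR adjusted p = 0.835). Bcl2a1c is not among the regulators and is left out of the sum, shares and sequence comparisons below. On GRCm38 they lie on chromosome 9, Bcl2a1d from 88723285 to 88731914, Bcl2a1a from 88956900 to 88962419 and Bcl2a1b from 89199209 to 89207827, each annotated as protein coding. Their coding sequences (516 bases without the stop codon) differ at 12 positions in all, with 97.9% identity between Bcl2a1a and Bcl2a1b, 98.6% between Bcl2a1a and Bcl2a1d and 98.8% between Bcl2a1b and Bcl2a1d. The first 60 coding bases hold 6 of these 12 positions and are shown because they carry the letters by which reads of the 3 genes can be told apart, in capitals (GENCODE M21 transcripts, 5′ to 3′).
Bcl2a1a: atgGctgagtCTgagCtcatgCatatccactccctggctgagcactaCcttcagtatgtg
Bcl2a1b: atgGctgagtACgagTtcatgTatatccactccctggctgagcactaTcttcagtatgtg
Bcl2a1d: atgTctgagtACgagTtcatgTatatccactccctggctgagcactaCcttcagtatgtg

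A read that covers no position at which the copies differ, in coding or other sequence, cannot be assigned to 1 of them. Of all windows of 100 bases in the annotated transcript, 31.1% in Bcl2a1b, 43.5% in Bcl2a1a and 54.7% in Bcl2a1d also occur in another of the 3. With windows of 50 bases these shares were 57.6, 67.7 and 79.5%, and with 150 bases 14.2, 28.2 and 30.3%. The read length is not stated. The deposited values are not whole numbers in 10 of 10 libraries for Bcl2a1a and Bcl2a1b and in 9 for Bcl2a1d, but also in 7 for Cflar, 6 for Bcl2l11 and 5 for Diablo, and how the program treated shared reads is not stated. The level of each copy is uncertain, and their sum was fitted as well. Bcl2a1b also shares exon sequence with an overlapping gene model on the same strand, Gm29094. The same holds for Bcl2l2 (Gm20521), Bax (Gm45808), Diablo (Gm49027) and Ripk1 (Gm17084). Exons of Bcl2, Bak1, Bad, Bid, Bcl2l13, Diablo, Casp9, Fadd and Ripk1 overlap a gene on the other strand.

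Bcl2a1b stood at 273, 322, 248, 201 and 240 CPM in CD36-negative libraries 1, 2, 4, 7 and 8. In CD36-positive libraries 1, 2, 3, 4 and 7 it stood at 468, 608, 527, 441 and 486 CPM. The lowest CD36-positive value exceeded the highest CD36-negative one. The means were 506 ± 65.2 against 257 ± 44.7 CPM (SD, n = 5 each), and the log2 fold change was 0.98 (SE 0.17, edgeR adjusted p = 0.00135). It was 0.80 within the 5 libraries of high Y-linked expression, where it did not pass (adjusted p = 0.231), and 1.01 within the 5 of low (adjusted p = 0.00229).

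Bcl2a1a stood at 64.3, 85.2, 65.2, 74.6 and 73.5 CPM in the CD36-negative and at 106, 95.7, 110, 99.7 and 95.8 CPM in the CD36-positive libraries, in the same order. These ranges did not overlap either, but the difference missed the threshold (log2 fold change 0.48, interval 0.13 to 0.83, edgeR adjusted p = 0.0924; it passed with the DESeq2 Wald test). Bcl2a1d was at 109, 151, 105, 86.9 and 107 against 85.6, 109, 163, 89.9 and 85.5 CPM, with groups that overlapped throughout (log2 fold change -0.07, interval -0.53 to 0.39). Summed over the 3 copies, the level was 447, 558, 419, 363 and 421 CPM in the CD36-negative and 660, 813, 800, 631 and 667 CPM in the CD36-positive libraries, again without overlap. The log2 fold change of the sum was 0.69 (SE 0.17, interval 0.34 to 1.04, edgeR adjusted p = 0.0151). Without CD36-negative library 4 or 7 the sum was at 0.65 and 0.63 and did not pass (edgeR adjusted p = 0.0584 and 0.0508). With the library number fitted as a block, it was 0.64 and did not pass (edgeR adjusted p = 0.0596). Only numbers 1, 2, 4 and 7 occur in both groups, so that fit compares the groups in fewer libraries. Within the libraries of high Y-linked expression it was 0.54 and did not pass (adjusted p = 0.442), and within those of low it was 0.70 (adjusted p = 0.0263).

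As counted, the copies did not keep their proportions. Bcl2a1b made up 70.9 ± 3.32% of the sum in CD36-positive and 58.1 ± 2.17% in CD36-negative libraries (SD, n = 5 each; 65.9 to 74.8% against 55.5 to 61.2%). Bcl2a1d made up 14.8 ± 3.16% against 25.2 ± 1.18% (12.8 to 20.3% against 23.9 to 27.0%). Neither pair of ranges overlapped. The 2-sided exact permutation p was 0.00794 for each, the smallest that 252 arrangements can give, and 0.0119 adjusted over the 3 copies; Bcl2a1a (14.4 against 16.6%) had an exact permutation p of 0.143. The 3 shares make up the whole sum, so their p-values are not separate results. These shares were chosen for testing after the levels of the copies were seen, so the p-values add no support beyond those levels. How the shares depend on the counting of shared reads was not tested.

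**Figure D2:**
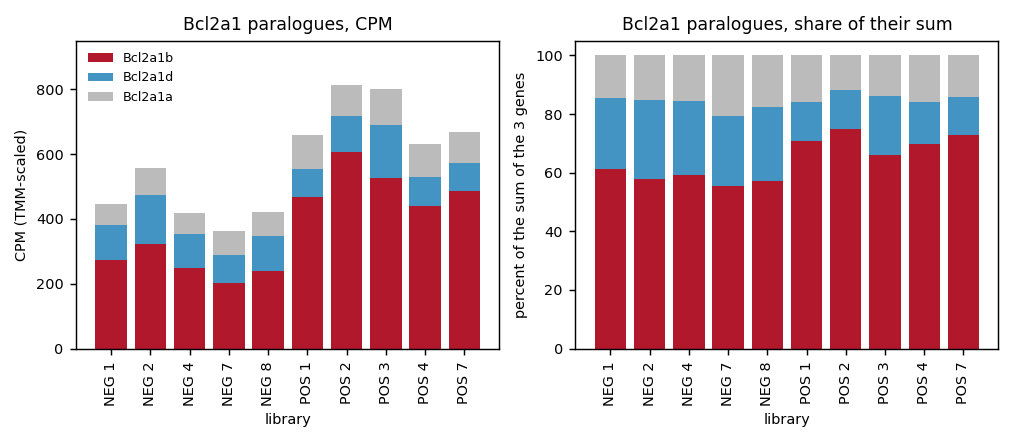
Bcl2a1a, Bcl2a1b and Bcl2a1d in each library (NEG: CD36-negative, POS: CD36-positive) as stacked CPM (left) and as a percentage of their sum (right). The sum runs from 363 to 558 CPM in CD36-negative and from 631 to 813 CPM in CD36-positive libraries, and the Bcl2a1b share lies above 65% in each CD36-positive library and below 62% in each CD36-negative one.

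The promoter windows of the copies, 250 bases before to 50 after the annotated start (RefSeq, GRCm38.p6), are nearly identical as well. They are shown for Bcl2a1b and Bcl2a1d, the copies whose shares moved in opposite directions, as chr9:89199023-89199322 on the plus strand and chr9:88731801-88732100 on the minus strand. Capitals mark GAGGAA on either strand, the core of sites bound by PU.1, a transcription factor of myeloid cells.
Bcl2a1b: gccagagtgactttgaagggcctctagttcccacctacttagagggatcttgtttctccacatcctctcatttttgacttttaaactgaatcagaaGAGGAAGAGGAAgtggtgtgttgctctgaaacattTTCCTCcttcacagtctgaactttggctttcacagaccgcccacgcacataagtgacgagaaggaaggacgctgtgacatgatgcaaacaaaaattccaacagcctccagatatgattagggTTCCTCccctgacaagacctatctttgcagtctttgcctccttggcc
Bcl2a1d: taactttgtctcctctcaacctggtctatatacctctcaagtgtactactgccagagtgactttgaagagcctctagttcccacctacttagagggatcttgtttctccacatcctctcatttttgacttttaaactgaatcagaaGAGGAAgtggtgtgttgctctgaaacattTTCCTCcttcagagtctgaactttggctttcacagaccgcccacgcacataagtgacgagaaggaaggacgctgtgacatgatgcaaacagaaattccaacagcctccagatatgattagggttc

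Over 256 aligned columns these windows were 96.5% identical, with 6 columns in gaps. The window of Bcl2a1a was 99.2% identical to that of Bcl2a1b over 256 columns and 96.0% identical to that of Bcl2a1d over 300. GAGGAA occurred 4 times in the Bcl2a1b window, 3 times in that of Bcl2a1a and 2 times in that of Bcl2a1d, counting both strands; the windows start at different places in the shared sequence. GAGGAA occurs in 28.3% of all 32851 promoter windows used and in 33.3% of the 45 windows of 33 regulators. Windows on chromosome 18, where Pmaip1 lies, were not used. The pattern TGANTCA, where N is any base, occurred once in each of the 3 windows, as tgaatca, and occurs in 7.8% of all windows. It is looser than the AP-1 site TGA(C/G)TCA, which tgaatca does not match. It overlapped no GAGGAA. The NF-kB consensus, which occurs in 8.5% of all windows, had 0 matches in the 3.

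Among the other anti-apoptotic genes 0 of 4 passed. Mcl1, whose short-lived protein many myeloid cells depend on, was at 329, 450, 430, 410 and 303 CPM in the CD36-negative and 448, 294, 416, 318 and 336 CPM in the CD36-positive libraries, with a log2 fold change of -0.09 (interval -0.46 to 0.29). Bcl2 was at 29.8 ± 7.88 against 19.8 ± 10.1 CPM in CD36-negative and CD36-positive libraries (log2 fold change -0.60, interval -1.33 to 0.14). CD36-positive library 7 held the lowest Bcl2 value, 6.50 CPM, and library 1 the highest of its group, 33.7 CPM. For Bcl2l1, the gene of BCL-XL, the log2 fold change was 0.37 (interval -0.09 to 0.83). For Bcl2l2, the gene of BCL-W, it was 0.63 (interval -0.24 to 1.51), which was 0.16 without CD36-positive library 1, where it stood at 35.0 CPM against 7.11 to 15.9 in the other 4.

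**Figure D3:**
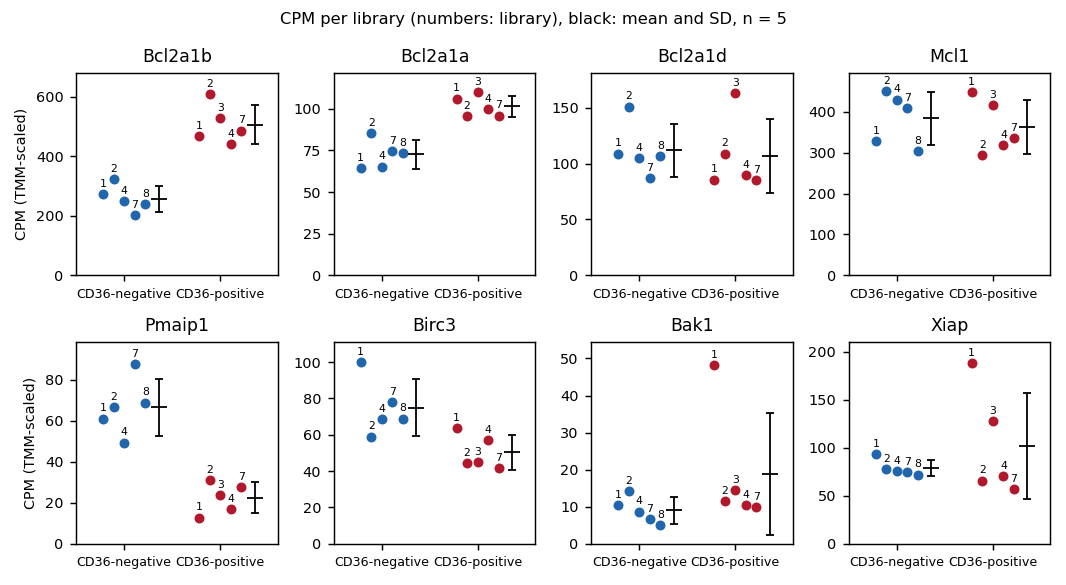
CPM of 8 regulators in each library (points, with the library number above), with the mean and SD of 5 libraries in black; each panel's axis starts at 0. Bcl2a1b, Bcl2a1a and Pmaip1 separate the groups, while in Bak1 and Xiap CD36-positive library 1 (48.2 and 188 CPM) stands above all others.

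Pmaip1 encodes NOXA, a BH3-only protein that binds MCL1 and A1 and is induced by p53 among other factors. On GRCm38 it lies on chromosome 18 from 66458533 to 66465565. It stood at 61.1, 66.6, 49.4, 87.6 and 68.9 CPM in CD36-negative libraries 1, 2, 4, 7 and 8. In CD36-positive libraries 1, 2, 3, 4 and 7 it stood at 12.8, 31.0, 23.8, 16.9 and 27.7 CPM, each below every CD36-negative value. The means were 22.5 ± 7.53 against 66.7 ± 13.9 CPM (SD, n = 5 each), and the log2 fold change was -1.56 (SE 0.25, edgeR adjusted p = 0.000737). The log2 fold change was -1.54 within the libraries of high Y-linked expression, where it did not pass (adjusted p = 0.0836), and -1.61 within those of low (adjusted p = 0.00397). Leaving out any 1 library gave -1.72 to -1.42, and it passed each time. The neutrophil, T and NK, dendritic and monocyte marker levels given above were lower in the same libraries.

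The other 5 BH3-only genes did not pass. Their log2 fold changes were -0.53 for Bbc3 (PUMA), -0.43 for Bmf, -0.41 for Bid, -0.09 for Bcl2l11 (BIM) and 0.17 for Bad. Bid, whose product links death receptors to mitochondria, was at 42.1 to 67.7 CPM in CD36-negative and 19.9 to 51.6 CPM in CD36-positive libraries. Its exons overlap those of Bcl2l13 on the other strand where both genes end, and the use of strand in counting is not stated. Bbc3 had the widest interval of the 5, -1.53 to 0.46. BIM and PUMA messages were thus measured with intervals that include no change, whereas the Pmaip1 interval ran from -2.10 to -1.03; whether these genes differ from each other in their change was not tested.

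As a description with no test, the summed Bcl2a1 level divided by the Pmaip1 level was 7.32, 8.39, 8.48, 4.14 and 6.10 in the CD36-negative libraries and 51.4, 26.2, 33.6, 37.3 and 24.0 in the CD36-positive ones. The lowest CD36-positive ratio lay above the highest CD36-negative one. This follows from the levels already given, since the summed Bcl2a1 level was above and the Pmaip1 level below in each CD36-positive library. The ratio was not scaled to gene length.

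Of the effectors, Bax was at 102 to 114 CPM in 4 of the CD36-negative libraries and 99.2 CPM in library 8, and at 105, 157, 112, 137 and 157 CPM in the CD36-positive ones (log2 fold change 0.33, interval -0.04 to 0.69). Bak1 stood at 10.4, 14.3, 8.69, 6.68 and 4.93 CPM in the CD36-negative and at 48.2, 11.6, 14.5, 10.5 and 9.91 CPM in the CD36-positive libraries. Its log2 fold change of 1.06 (interval 0.08 to 2.05, edgeR adjusted p = 0.193) was the largest positive one of the 33 and did not pass. Without CD36-positive library 1 it was 0.37. Bok had at most 2.94 CPM in any library, with 0 counts in 6 of the 10. Bcl2l13, a BCL2 relative of the mitochondrial outer membrane, stood at 18.0, 29.2, 19.1, 33.5 and 34.3 against 12.8, 20.8, 30.8, 25.9 and 15.8 CPM and did not pass (-0.34, interval -0.96 to 0.29).

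Downstream of mitochondria 0 of 4 genes passed. Diablo, whose product displaces inhibitor proteins from caspases, was at 88.0, 92.3, 68.1, 73.7 and 74.7 CPM in CD36-negative and 37.4, 59.6, 43.7, 78.0 and 71.9 CPM in CD36-positive libraries. The 3 lowest values were in CD36-positive libraries 1, 2 and 3, and the groups overlapped through libraries 4 and 7 (log2 fold change -0.45, interval -0.91 to 0.02). Within the libraries of low Y-linked expression it was 0.06. Cycs, the gene of cytochrome c, had a log2 fold change of 0.25, Apaf1 one of -0.15 and Aifm1, apoptosis-inducing factor, one of -0.24.

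The 4 caspase genes did not pass. Casp2 had the smallest p of these, at 56.4, 35.2, 47.5, 40.4 and 52.2 CPM in CD36-negative and 41.3, 44.5, 16.5, 31.3 and 46.2 CPM in CD36-positive libraries (log2 fold change -0.37, interval -0.92 to 0.18). Without CD36-positive library 3, which held the lowest value, it was -0.18. Casp8, the initiator caspase of death receptors, was the most precisely measured of the 4, at 171 ± 21.9 CPM in CD36-negative and 179 ± 29.5 CPM in CD36-positive libraries (log2 fold change 0.07, interval -0.29 to 0.43). Casp9 (-0.08) and the effector caspase gene Casp6 (-0.15) lay near 0.

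Among inhibitor of apoptosis genes, Birc3 (cIAP2), which is also an NF-kB target, came closest to the threshold. It stood at 100, 59.0, 68.5, 77.8 and 68.9 CPM in the CD36-negative and 63.5, 44.3, 44.8, 56.9 and 41.8 CPM in the CD36-positive libraries. Only CD36-positive library 1, at 63.5 CPM, lay above the lowest CD36-negative value. The log2 fold change was -0.58 (SE 0.20, edgeR adjusted p = 0.101); without CD36-positive library 1 it was -0.67 and passed (adjusted p = 0.0473). Birc2 (cIAP1), the neighbouring gene on chromosome 9, stood at 0.01 on the same scale (interval -0.46 to 0.49). The counts of Birc2 and of Birc3 were not whole in 3 libraries each. Xiap ranged from 57.3 to 188 CPM in CD36-positive and from 72.0 to 93.6 CPM in CD36-negative libraries. Its log2 fold change of 0.37 turned to -0.29 without CD36-positive libraries 1 and 3, the libraries with 188 and 128 CPM.

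Death receptor and necroptosis genes showed 0 calls among 6. Fas was low in all libraries, at 4.63 to 14.5 CPM in CD36-negative and 0.186 to 10.6 CPM in CD36-positive ones, and its interval was wide (-1.62 to 1.09). Of its adaptor Fadd, CD36-negative libraries held 23.2, 30.8, 29.0, 22.2 and 21.3 CPM and CD36-positive libraries 14.3, 21.6, 25.2, 15.9 and 33.3 CPM (log2 fold change -0.19, interval -0.77 to 0.38). Cflar, which encodes the caspase-8 inhibitor c-FLIP, and Ripk1 lay close to 0, at -0.02 (interval -0.45 to 0.41) and 0.08 (interval -0.36 to 0.53). Ripk3, the kinase that activates MLKL, was at 0.17 (interval -0.47 to 0.82). Mlkl, the pore former of necroptosis, was at 14.1, 6.85, 4.60, 6.16 and 4.85 CPM in CD36-negative and 2.98, 9.93, 5.44, 11.4 and 18.1 CPM in CD36-positive libraries. Both its highest and its lowest value were in CD36-positive libraries (log2 fold change 0.40, interval -0.68 to 1.47).

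**Figure D4:**
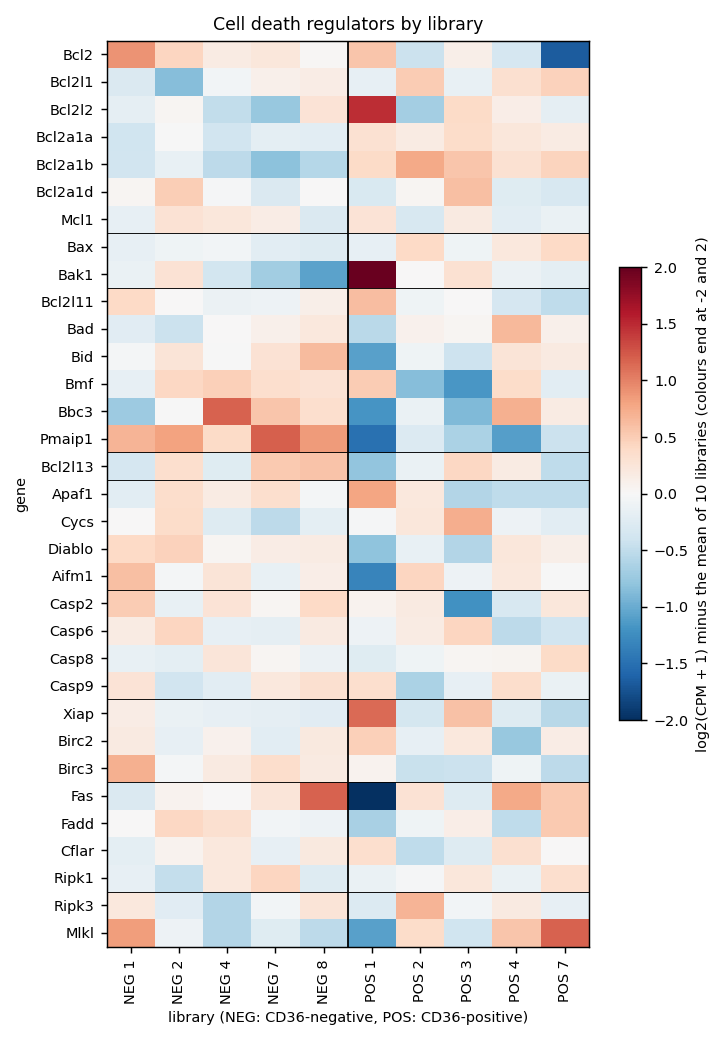
Log2(CPM + 1) of the 33 tested regulators (lines) in each library (columns; NEG: CD36-negative, POS: CD36-positive) minus the gene's mean over 10 libraries, with black lines between roles. Pmaip1 and Bcl2a1b divide the groups, and CD36-positive library 1 holds the deepest colours, among them Bak1 (48.2 CPM) and Fas (0.186 CPM).

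Extreme values of the regulators were most frequent in CD36-positive library 1, the shallowest. The same count was not made over all tested genes, so this is not shown to be particular to the regulators. It held the highest or the lowest value of its group for 26 of the 33, against 8 to 13 for the other CD36-positive libraries and 9 to 17 for the CD36-negative ones, ties counted for both. Highest there were Bcl2, Bcl2l2, Mcl1, Bak1, Bcl2l11, Bmf, Apaf1, Xiap, Birc2, Birc3 and Cflar. Lowest were 15 others, Fas, Pmaip1, Bid, Diablo and Aifm1 among them. Without CD36-positive libraries 1 and 3, the calls were again Bcl2a1b (0.98) and Pmaip1 (-1.41).

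Levels of different genes were compared per kilobase of annotated exon. Bcl2a1b had the highest such level of the 34 in both groups, 619 ± 79.6 CPM per kilobase in CD36-positive and 314 ± 54.7 in CD36-negative libraries (SD, n = 5). Bcl2a1a, Bcl2a1d and Mcl1 came next, between 88.6 and 130 CPM per kilobase in either group, and the order among these 3 lay within their spread in CD36-positive libraries (124, 124 and 106). Bax (84.8 and 67.5), Casp8 (61.9 and 59.0) and Cycs (58.5 and 49.1, CD36-positive and CD36-negative) followed. The BH3-only gene at the highest level was Pmaip1 in CD36-negative libraries, at 24.4 ± 5.09 CPM per kilobase, and Bad in CD36-positive ones, at 16.5 ± 4.87; Pmaip1 was at 8.21 ± 2.75 there. Among the 7 anti-apoptotic genes the 3 Bcl2a1 copies made up 86.0 ± 2.11% of the length-scaled sum in CD36-positive and 79.0 ± 3.24% in CD36-negative libraries, Mcl1 10.6 ± 2.07% and 16.8 ± 2.80%, and Bcl2 under 1% in each library. These lengths join the exons of all annotated transcripts, so genes with long minor transcripts read low.

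**Figure D5:**
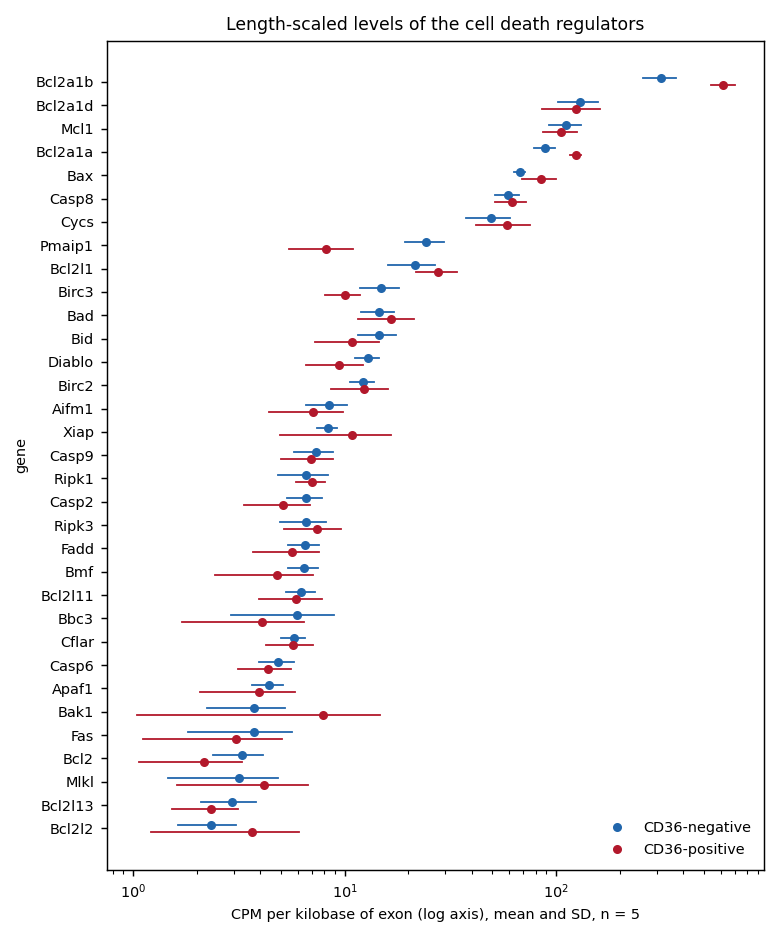
Mean and SD of the length-scaled level (CPM per kilobase of exon, log axis, n = 5) of the regulators except Bok, in CD36-negative (blue) and CD36-positive (red) libraries, ordered by the CD36-negative level. Bcl2a1b (314 and 619) leads in both groups, and Pmaip1 shows the widest gap among genes above 20 in CD36-negative libraries (24.4 against 8.21).

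Further genes of cell death behaved like the regulators in number. Of 69 such genes present, 59 were tested, 1 was higher and 2 were lower (5.08%, against 7.36% of all tested genes), with a median log2 fold change of -0.05. Of 14 BCL2 relatives 0 rose and 1 fell, of 10 further caspases and caspase substrates 0 passed, of 15 mitochondrial and inhibitor genes 1 rose and 0 fell, and of 20 death receptor genes 0 rose and 1 fell. The gene that rose was Birc5, survivin, an inhibitor family member that acts mainly in mitosis: 68.7, 60.6, 27.0, 45.2 and 38.9 CPM in CD36-negative against 68.8, 155, 139, 81.9 and 91.1 CPM in CD36-positive libraries (log2 fold change 1.16, SE 0.28, edgeR adjusted p = 0.0154). The groups did not overlap, though library 1 of each lay side by side. Within the libraries of high Y-linked expression Birc5 was at 0.86 and did not pass (edgeR adjusted p = 0.339). Traf1, an adaptor of TNF receptors that binds cIAP proteins, fell from 73.5, 49.7, 69.0, 66.5 and 47.7 CPM in CD36-negative to 1.86, 2.14, 6.02, 2.37 and 6.89 CPM in CD36-positive libraries (log2 fold change -3.96, SE 0.37, edgeR adjusted p = 3.05e-06). Bcl2l14, a BCL2 relative, fell too, with 398 counts over the CD36-negative and 21 over the CD36-positive libraries (log2 fold change -3.96, SE 1.02, edgeR adjusted p = 0.0233). Its call was lost without CD36-negative library 2, 7 or 8 (log2 fold changes -3.77, -3.99 and -3.88), and without CD36-positive libraries 1 and 3 together (-3.33), and within libraries of low Y-linked expression (-2.71); the value was -6.36 without CD36-positive library 4. The neutrophil, T and NK, dendritic and monocyte markers were lower in the same libraries as Traf1 and Bcl2l14.

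Of 16 tested genes of p53 and its targets, the setting in which Pmaip1 is best known, 1 rose, 1 fell and 14 did not pass, with a median log2 fold change of -0.01. That is 12.5% called against 7.36% of all tested genes, and at an unadjusted p under 0.05 it was 5 genes (31.2%) against 21.3%. Sesn1, a stress-response gene, rose by 0.76 (SE 0.20, edgeR adjusted p = 0.0301). That call was lost when any 1 of the CD36-negative libraries or CD36-positive library 4 or 7 was left out (log2 fold changes 0.63 to 0.78), and within the libraries of high Y-linked expression (0.67). Btg2, also an immediate early gene, was at 301, 305, 291, 334 and 343 CPM in CD36-negative and 96.6, 133, 149, 155 and 140 CPM in CD36-positive libraries (log2 fold change -1.22, SE 0.17, edgeR adjusted p = 0.000147). Trp53 itself (-0.26, edgeR adjusted p = 0.476) and Mdm2 (-0.09, edgeR adjusted p = 0.848) did not pass. Cdkn1a, the p21 cell cycle inhibitor, missed the threshold at 0.58 (edgeR adjusted p = 0.0537), with 51.0 to 62.6 CPM in CD36-negative and 69.2 to 95.4 CPM in CD36-positive libraries. Trp53, Mdm2 and Cdkn1a were chosen after their values were seen.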

How the data were processed

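RNA sequencing of 10 sorted samples of mouse retinal cells was used, 5 CD36-positive and 5 CD36-negative, grouped and numbered by the description label. The authors deposited 1 table of expected counts per gene symbol (estimated counts; 91.9% of values are whole), not normalized. Tools named in the submitters' processing notes, with no role, were StringTie 1.3.1, HISAT2 2.1.0, Bowtie2 2.2.8 and fastp 0.18.0, on build mm10; the counter is not given in the sources. Of 22008 lines, 8 damaged and 131 repeated ones were dropped, leaving 21869 genes. Xiap and Birc2 stood on repeated lines whose copies were equal, and no regulator on a damaged one.

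Rounded counts that passed filterByExpr with a minimum count of 10 were normalised (TMM) and fitted in edgeR 4.0.16 under R 4.3.3 by glmQLFit and glmQLFTest, comparing groups without covariates, with p-values adjusted by Benjamini-Hochberg over 11596 genes (threshold 0.05). CPM use TMM-scaled library sizes. SE and 95% intervals come from the F statistic and its degrees of freedom. The summed Bcl2a1 row replaced the 3 copies in a fit of its own. The fit was checked on 5 simulated data sets with 200 changed genes (median 11378 tested), where 5.01% of calls were false. Replicates differed by more than sampling noise in each pair within a group (chi-square divided by its degrees of freedom, 23.3 to 116). Gene positions and lengths are from GENCODE M21 (GRCm38; 34 of 34 symbols matched) and promoters from RefSeq. Promoter windows on chromosome 18 were left out, so Pmaip1 had none and 33 regulators had a window.

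The rule for named genes was to account for every regulator, giving values in each library for those past the threshold and for the smallest p in each role without one, and to name called genes of the other lists. The regulators and lists were chosen with earlier results of these data known. Alternatives covered normalization, filters, DESeq2 1.42.0, limma 3.58.1 voom, left-out libraries, replicate blocks, the Y-linked level, thresholds and the summed row.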

Additional observations from a re-analysis of the deposited data

Results flagged for a closer look

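In 6 of 68 gene-and-group sets of 5 libraries, 1 library stood apart from the other 4 by Dixon's ratio (critical value 0.71). With normally distributed values chance alone flags about 1 in 20 such sets. Bok, with 27 counts over the CD36-positive and 10 over the CD36-negative libraries, does not have such values. A few reads in 1 library can flag it. In CD36-positive library 1 Bak1 was at 48.2 CPM, against 9.91 to 14.5 CPM in the other CD36-positive libraries. Bok was at 2.94 CPM in CD36-positive library 2, against 0 to 0.143, and at 0.772 CPM in CD36-negative library 1, against 0 to 0.101. CD36-negative library 1 was also highest for Xiap, at 93.6 CPM against 72.0 to 77.6, and for Mlkl, at 14.1 CPM against 4.60 to 6.85. Fas was at 14.5 CPM in CD36-negative library 8, against 4.63 to 7.10. Bcl2a1b and Pmaip1 had no such library in either group.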

How the results depend on the processing

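Bcl2a1b and Pmaip1 kept direction and call under normalization, filters, either tool, each left-out library and both blocks. Within libraries of high Y-linked expression 0 regulators passed in either direction, and of all 12614 tested genes 33 were higher and 215 lower. Tested against a log2 fold change of 1, 0 regulators passed, and of all 11596 genes 6 were higher and 214 lower. DESeq2's Wald test called 2 regulators higher (Bcl2a1a added), and 615 higher and 862 lower of all 14145 genes. With the Bcl2a1 rows summed, 0 of the 30 others were higher, against 303 of all 11594 genes. Without 1 library 1 to 2 regulators were lower, against 422 to 576 of all tested genes. The Bcl2a1 sum had log2 fold changes of 0.63 to 0.79 without 1 library, 0.64 with the replicate block and 0.54 within high Y-linked libraries. The last 2 did not pass, nor did 0.69 at an adjusted p of 0.01 or against a log2 fold change of 1. Causes were not tested.

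Of other cell death genes, 1 to 3 were higher without 1 library (3 without CD36-positive library 1). The number higher was 2 with no filter, DESeq2's Wald test, voom, the Y-linked covariate, low Y-linked libraries, or without CD36-positive libraries 1 and 3. It was 0 with the replicate block, in high Y-linked libraries, at 0.01 and against 1. The number lower was 1 to 2 without 1 library (1 without CD36-negative library 7 or 8), and 1 with the 10 CPM filter, the replicate block, at 0.01 and against 1. Over all tested genes the number higher ran from 6 (against 1) to 615 (DESeq2's Wald test), and the number lower from 214 to 862 in the same settings.

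Description numbers 1, 2, 4 and 7 occur in both groups, but deviations of same-numbered libraries correlated at 0.03, 0.13, 0.10 and 0.10, and 1 of 4 had its own number as best partner, so the numbers were not taken to pair libraries. The Y-linked class, however, was the same in both libraries of each of these 4 numbers. The labels do not state whether same-numbered libraries share a source. The block by description number, in which only the shared numbers compare the groups, gave 184 higher and 466 lower genes, against 303 and 550 without it. Birc5 (1.00), Bcl2l14 (-4.70) and the Bcl2a1 sum (0.64) did not pass under it. The block by title number gave 271 and 585.

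Regulators without a call changed sign in some fits. Within low Y-linked libraries these were Diablo (0.06), Aifm1 (0.02), Casp9 (0.00), Xiap (-0.21), Birc2 (-0.27), Fas (0.08), Fadd (0.03), Cflar (0.08) and Ripk1 (-0.04), and within high ones Apaf1 (0.10) and Mlkl (-0.81). Without CD36-positive libraries 1 and 3 they were Bcl2l2 (-0.04), Aifm1 (0.03), Xiap (-0.29), Birc2 (-0.25) and Fas (0.21). With the description block they were Casp9 (0.01), Birc2 (-0.05) and Cflar (0.06). Birc2 was also at -0.04 with the title block, -0.02 with the Y-linked covariate, -0.01 with no filter and -0.16 with voom. Without 1 library the ranges were -0.27 to 0.06 (Bcl2a1d), -0.30 to 0.01 (Bcl2l11), -0.01 to 0.30 (Bad), -0.03 to 0.13 (Casp8), -0.19 to 0.04 (Casp9), -0.13 to 0.16 (Birc2), -0.53 to 0.09 (Fas), -0.11 to 0.08 (Cflar), -0.02 to 0.22 (Ripk1) and -0.03 to 0.26 (Ripk3).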
